A study of Mus musculus with 8 samples.

Results

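Transcripts of macrophages and dendritic cells were followed in 8 RNA sequencing libraries of mouse thymocytes. The genes are a list of 40 that mark myeloid and dendritic cells or serve their functions, and a gene counted as a member if its symbol occurs in the deposited count files. All 40 were found among 23420 symbols, with Spi1 listed under its older name Sfpi1 and Adgre1 listed as Emr1. Thymocytes are the developing T cells of the thymus. The labels describe wild-type mice of 2 strains, named B6 and BALB without a substrain, and give no treatment. In each strain 2 libraries came from DP thymocytes, which carry both CD4 and CD8, and 2 from whole thymocytes, so that there were 4 groups. The DP sort kept CD4+ CD8+ cells that lacked the activation marker CD69 and bound little or moderate amounts of H57, which recognises the T cell receptor. The labels name no such gate for whole thymocytes. Whether libraries of a group are from different animals is not stated in the labels. The 2 BALB whole libraries differ in sex-linked transcripts, given below, and so are not from the same animal. For the other groups this is not known. P-values measure the spread between these libraries, which may be technical there.

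Macrophages of the thymus take up thymocytes that die during selection, and dendritic cells present antigens to maturing thymocytes. Both cell types depend on the transcription factor Spi1 (PU.1). Conventional dendritic cells need Flt3 signals, plasmacytoid dendritic cells sense nucleic acids through Tlr7 and Tlr9, and macrophages carry the receptor Csf1r. Macrophages also make the 3 chains of C1q, the protein that starts the classical complement pathway and coats dying cells.

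C1qa, C1qb and C1qc lie next to each other on chromosome 4 within 136880129 to 136898803 (GRCm38, the build called mm10 by the submitters), with gaps of 3.6 kb between C1qb and C1qc and 2.9 kb between C1qc and C1qa. Itgam and Itgax, integrin subunits of macrophages and dendritic cells, are 11.1 kb apart on chromosome 7, and the chemokine genes Ccl22 and Ccl17 are 58.8 kb apart on chromosome 8. Promoters of 3 members are printed for members that stand for different patterns in the values that follow: C1qb, close to absent from DP libraries, Mpeg1, the same with more counts, and Cd68, well counted in DP libraries too. Each is the stretch of 250 bases before the RefSeq start (GRCm38.p6), 5′ to 3′ on the gene's strand, overlapping no annotated exon, and capitals mark a match to the C/EBP motif described after the sequences. The coordinates are chr4:136886201-136886450 on the minus strand for C1qb, chr19:12460520-12460769 on the plus strand for Mpeg1 and chr11:69666171-69666420 on the minus strand for Cd68.
C1qb: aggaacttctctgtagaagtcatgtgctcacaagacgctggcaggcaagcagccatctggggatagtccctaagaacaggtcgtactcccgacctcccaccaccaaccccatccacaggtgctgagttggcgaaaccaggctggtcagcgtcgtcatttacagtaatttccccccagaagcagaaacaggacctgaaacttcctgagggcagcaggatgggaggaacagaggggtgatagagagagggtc
Mpeg1: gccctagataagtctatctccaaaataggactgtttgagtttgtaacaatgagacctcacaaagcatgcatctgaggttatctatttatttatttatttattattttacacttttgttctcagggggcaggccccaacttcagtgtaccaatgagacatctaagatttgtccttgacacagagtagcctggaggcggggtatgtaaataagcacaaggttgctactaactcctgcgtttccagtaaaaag
Cd68: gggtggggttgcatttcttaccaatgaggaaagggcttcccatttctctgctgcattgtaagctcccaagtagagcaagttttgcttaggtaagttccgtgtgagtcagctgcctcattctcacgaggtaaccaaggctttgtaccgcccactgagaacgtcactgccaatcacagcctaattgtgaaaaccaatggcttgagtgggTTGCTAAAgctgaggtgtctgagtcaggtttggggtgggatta

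Such windows were on file for 32 members, 34 windows in all. Motifs of factors that act in myeloid cells were searched on both strands (N stands for any base). The PU.1 motif GAGGAAGT was in 1 of 34 windows (2.94%) and in 2.44% of 32851 windows of the same length. The composite motif of Ets and interferon regulatory factors (EICE), where PU.1 meets Irf8 or Irf4, was in 1 of 34 (2.94%) against 2.30%, and TTGCNNAA, the C/EBP motif, in 4 of 34 (11.8%) against 9.56%. In that count 2 windows are of Fcgr3, overlap and hold the same match, and by gene the C/EBP motif was in 3 of 32 members (9.38%) against 10.8% of all genes. These shares are close to those of all windows, and a match is a description of letters, not a site.

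The libraries held 2632083 to 5974684 counts in genes, and the 40 members together took 217 to 488 counts of a DP library (0.0071% to 0.0082%) and 1282 to 1617 of a whole thymocyte library (0.0315% to 0.0417%). Values are given in CPM, counts scaled to library size with the trimmed mean of M values, in which a single count is worth 0.175 to 0.388 CPM. Rag1, which thymocytes switch off as they mature, was at 4811 to 10500 CPM in DP and 3183 to 5662 CPM in whole thymocytes, higher in both DP libraries of a strain than in its whole libraries. S1pr1, of mature thymocytes, had at most 1 count in a DP library and 103 to 117 counts in a whole library. Some libraries stood apart. In BALB DP replicate 1 the ribosomal precursor Rn45s took 3.14% of counts against 5.11% to 8.35% elsewhere. BALB whole replicate 1 had 12313 counts of the X-linked Xist and 0 of the Y-linked Ddx3y, the pattern of female cells, against 203 and 725 in replicate 2 of that group. Libraries of the other groups had 6 to 24 counts of Xist and 444 to 1177 of Ddx3y, the pattern of male cells. BALB whole replicate 2 thus had Ddx3y in their range but more Xist. It had 34 counts of the Y-linked Eif2s3y against 180 to 480 in the other groups. Whether it held cells of both sexes was not tested. Sex is thus mixed into each comparison with BALB whole thymocytes and cannot be told apart there from strain or population. BALB whole replicate 2 was high in neutrophil genes: 17 neutrophil and monocyte genes other than the members summed to 181 CPM there, 35.3 CPM in BALB whole replicate 1, 14.0 to 18.2 CPM in B6 whole thymocytes and 1.17 to 3.14 CPM in DP thymocytes. All 17 had a count in BALB whole thymocytes and 14 of 17 in B6 whole thymocytes, where Elane, Cxcr2 and Ctsg were at 0.

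Members were more abundant in whole than in DP thymocytes of both strains. Summed over the 40, the level was 73.1 and 81.8 CPM in B6 DP and 330 and 310 CPM in B6 whole thymocytes, and 85.5 and 84.2 CPM in BALB DP and 369 and 404 CPM in BALB whole thymocytes. The groups of DP and whole libraries did not overlap, and the whole level was 4.13 times the DP level in B6 and 4.55 times in BALB. Without 7 members that were well counted in DP libraries (Cebpb, Irf5, Irf8, Cst3, Axl, Cd68 and Itgam), the other 33 summed to 12.4 to 16.2 CPM in DP and 207 to 280 CPM in whole libraries. In bulk RNA, fewer cells of a type and less of their RNA per cell cannot be told apart. Sums of some other cell types moved with those of the members: B cell genes (15) were at 16.1 to 28.1 CPM in DP and 42.4 to 63.3 CPM in whole libraries, natural killer cell genes (9) at 11.9 to 21.0 CPM and 43.0 to 77.3 CPM, and mature thymocyte genes (9) at 321 to 360 CPM and 704 to 944 CPM. Their part in the members' difference was not tested. Whole over DP ratios of the epithelial and of the endothelial and mesenchymal sums were nearer to 1. They were 1.35 in B6 and 0.86 in BALB for thymic epithelial genes (15). For endothelial and mesenchymal genes (11) they were 1.10 and 1.19. Erythroid genes (8) were higher in whole thymocytes, with ratios of 1.98 in B6 and 4.28 in BALB. Only 2 to 4 of the 8 had a count in a group. Ctsl held 951 of the 1042 CPM of the epithelial sum in BALB DP libraries. Pecam1 held 149 of the 153 CPM of the endothelial and mesenchymal sum in B6 DP libraries. By the test given below, 6 of 11 epithelial genes rose in B6 and 7 in BALB, where 1 fell. Of 4 endothelial and mesenchymal genes 2 and 1 rose. Over all tested genes 6.89% and 10.6% rose. Only whole libraries let 6 and 3 of these list genes into the test.

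**Figure D1:**
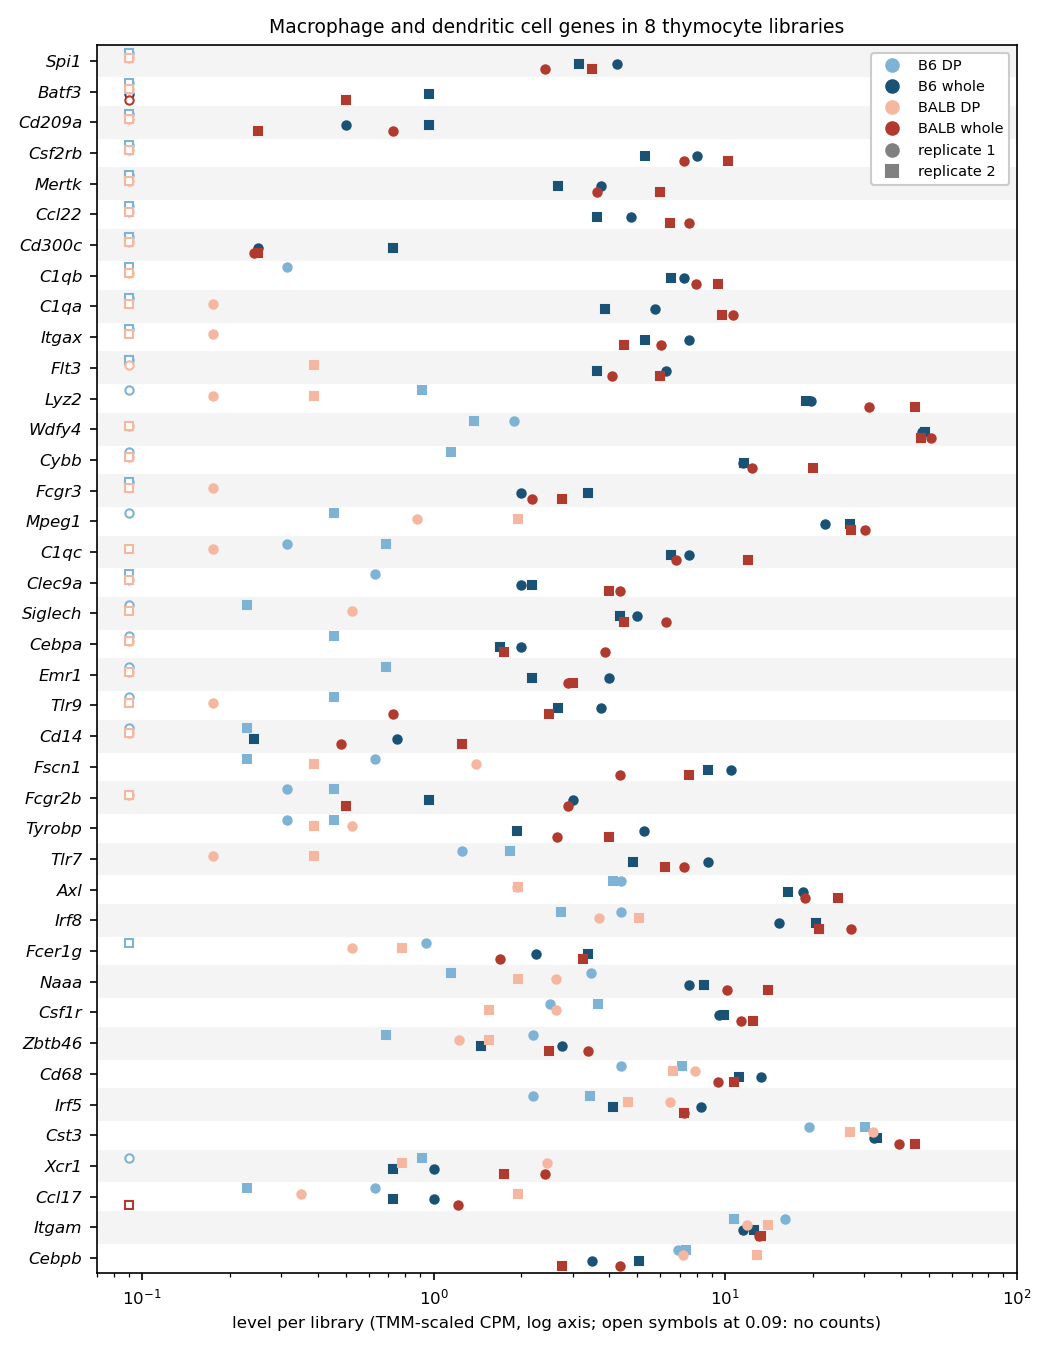
CPM of each member (rows, ordered by the DP level as a percent of the whole level) in each of the 8 libraries on a log axis, with colours for the 4 groups, circles for replicate 1, squares for replicate 2 and open symbols at the left edge for no counts. In the upper rows DP libraries sit at or near 0 and whole libraries lie apart to the right, while in the lowest rows, among them Itgam, DP and whole libraries lie at similar levels or DP libraries lie higher.

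Both whole libraries were above both DP libraries for 35 of 40 members in each strain, while 30.1% of all genes with a count did so in B6 and 28.5% in BALB. Cebpb was below in both strains, where 23.8% of all genes with a count were below in B6 and 19.4% in BALB. The other 4 members in B6 were Batf3, Zbtb46, Xcr1 and Itgam, and in BALB Batf3, Xcr1, Ccl17 and Itgam. By the quasi-likelihood test of edgeR, adjusted by Benjamini-Hochberg over 11409 genes (a call is an adjusted p under 0.05), 25 members rose and 0 fell in B6 whole over DP thymocytes, where 6.89% of the tested genes rose and 3.27% fell. In BALB 25 rose and 1 fell, with 10.6% and 6.59% of the tested genes. At an unadjusted p under 0.05 the counts were 28 and 0 in B6 and 28 and 1 in BALB, and 0 fell in B6 by the DESeq2 Wald test and by limma-voom also. The filter on low counts kept 33 members, of which 26 passed only through whole libraries and so had to be higher there, and the counts of calls are a description for them. Of the 7 members that DP libraries alone let pass, Irf8, Axl and Cd68 rose in B6, and Irf8 and Axl rose and Cebpb fell in BALB. With groups without a count set to a floor of 3 counts over the group, the median ratio of whole to DP level was 7.05 in B6 (40 members, 11 of them floors) and 8.13 in BALB (38 members, 13 floors), against a median log2 change near 0 over all tested genes. Floors and intervals cover counting error only.

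With 2 libraries a group, some calls were lost when a single library was left out. Without B6 DP replicate 1, 18 of the 25 B6 calls remained, and Csf1r, Tlr7, Tlr9, Emr1, Cd68, Tyrobp and Fcgr3 did not pass. Without B6 DP replicate 2, 17 remained, with Naaa, Tlr7, Tlr9, Emr1, Mertk, Cd68, Tyrobp and Fcgr3 lost. Without B6 whole replicate 1, 16 remained, with Spi1, Csf1r, Naaa, Tlr7, Tlr9, Emr1, Mertk, Cd68 and Tyrobp lost, and without B6 whole replicate 2, 19 remained, with Csf1r, Naaa, Tlr9, Emr1, Cd68 and Fcgr3 lost. Leaving out either BALB whole library ended the B6 calls of Emr1 and Cd68. Of the 26 BALB calls, 22 remained without BALB DP replicate 1 (Emr1, Tyrobp, Fcgr3 and Fcgr2b lost), 25 without BALB DP replicate 2 (Cebpb lost), 23 without BALB whole replicate 1 (Cebpb, Tyrobp and Fcgr2b lost) and 22 without BALB whole replicate 2 (Cebpb, Fscn1, Tyrobp and Fcgr3 lost), and Fcgr2b also lost its call without any 1 of the B6 libraries. Calls held in each alternative that tested the gene for 15 of 25 members in B6 and 20 of 26 in BALB.

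**Figure D2:**
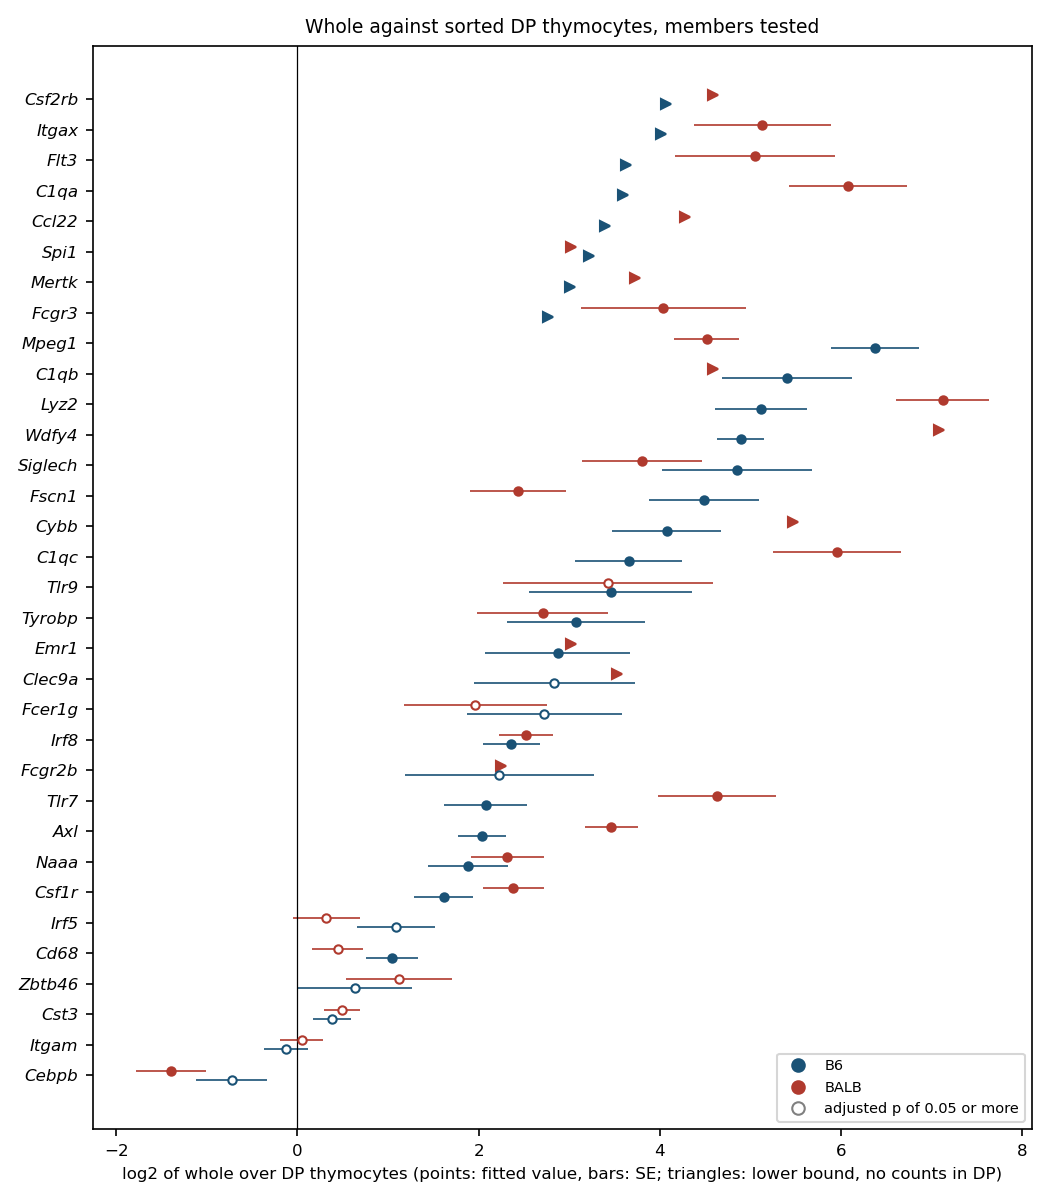
Log2 of the whole over DP level for the 33 members tested, in B6 and BALB, as fitted values with SE bars or, where the DP libraries had no counts, triangles at the lower bound. Open symbols mark an adjusted p of 0.05 or more: Itgam lies close to 0, Cebpb lies left of 0 in both strains, and the other members lie right of 0.

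Of the transcription factors, 5 of 7 were tested, and Spi1 and Irf8 rose in both strains. Over all tested genes 6.89% rose in B6 and 10.6% in BALB. Spi1 and Zbtb46 passed the filter only through whole libraries. Spi1, the master factor of myeloid development (chromosome 2, 91082390 to 91115756), was at 0 in the 4 DP libraries, at 4.25 and 3.14 CPM in B6 whole and at 2.42 and 3.50 CPM in BALB whole thymocytes. All whole libraries were above the floor of 0.189 CPM that 3 counts over the DP libraries give, and the level was at least 9.30-fold higher in B6 and at least 8.14-fold higher in BALB. Irf8, needed for conventional type 1 and plasmacytoid dendritic cells, was present in DP libraries, at 4.39 and 2.74 CPM in B6 and 3.68 and 5.05 CPM in BALB, and reached 15.2 and 20.6 CPM in B6 whole and 27.1 and 21.0 CPM in BALB whole thymocytes. The log2 fold change (± SE) was 2.36 ± 0.32 in B6 and 2.52 ± 0.29 in BALB.

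Cebpb, which drives cytokine genes in myeloid cells, went the other way (chromosome 2, 167688915 to 167690418). Its levels in replicate order were 6.91 and 7.31 CPM in B6 DP, 3.50 and 5.08 CPM in B6 whole, 7.18 and 12.8 CPM in BALB DP and 4.35 and 2.75 CPM in BALB whole thymocytes. DP and whole libraries did not overlap in either strain. Cebpb fell by 1.40 ± 0.39 on the log2 scale in BALB (edgeR adjusted p = 0.0287), and its value in B6 was -0.73 ± 0.39 (edgeR adjusted p = 0.293). The edgeR adjusted p in BALB was 0.0667 without BALB DP replicate 2, 0.0582 without BALB whole replicate 1 and 0.17 without BALB whole replicate 2.

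Irf5, which acts after Toll-like receptors, did not pass, with 2.2 to 6.48 CPM in DP and 4.11 to 8.25 CPM in whole libraries. Zbtb46, a factor of conventional dendritic cells, did not pass either, at 0.685 to 2.2 CPM in DP and 1.45 to 3.38 CPM in whole libraries. Cebpa, of granulocyte and macrophage precursors, and Batf3, of type 1 conventional dendritic cells, were too low to test. Cebpa had 0 and 2 counts in B6 DP, 8 and 7 in B6 whole, 0 and 0 in BALB DP and 16 and 7 in BALB whole libraries. Batf3 had no count outside replicate 2 of the whole thymocytes, with 4 counts in B6 and 2 in BALB.

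Each of the 3 growth factor receptors rose in both strains, where 6.89% (B6) and 10.6% (BALB) of all tested genes rose. All 3 passed the filter only through whole libraries, so these calls are a description. Csf2rb, the shared beta chain of the GM-CSF, IL-3 and IL-5 receptors, was at 0 in all DP libraries, at 8.0 and 5.32 CPM in B6 whole and at 7.25 and 10.2 CPM in BALB whole thymocytes. Its level was at least 16.7-fold higher in B6 and at least 24.1-fold higher in BALB, though its near-identical copy Csf2rb2 can share its reads. Flt3, the receptor that sustains dendritic cell precursors, had a single count among the 4 DP libraries, in BALB DP replicate 2. In whole thymocytes it was at 6.25 and 3.63 CPM in B6, at least 12.4-fold higher, and at 4.11 and 5.99 CPM in BALB, a ratio of 41.7 with a 95% counting interval of 7.08 to 1686.

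Csf1r, the receptor on which macrophages depend (chromosome 18, 61100598 to 61132149), was counted in every DP library. Its levels were 2.51 and 3.66 CPM in B6 DP, 9.50 and 9.92 CPM in B6 whole, 2.63 and 1.55 CPM in BALB DP and 11.3 and 12.5 CPM in BALB whole thymocytes. It rose by 1.61 ± 0.33 on the log2 scale in B6 and 2.38 ± 0.33 in BALB, with the DP and whole libraries apart in both. The largest adjusted p among these calls of receptors was 0.00905 by edgeR, for Csf1r in B6.

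Among genes of conventional dendritic cells, 5 of 7 were tested, 3 rose in B6 and 4 in BALB (6.89% and 10.6% of all tested genes). Those tested, except Cst3, passed the filter only through whole libraries, so their calls are a description. Wdfy4, which type 1 conventional dendritic cells use to present antigens taken up from dead cells (chromosome 14, 32959547 to 33185508), had the highest count of the members in whole thymocytes. Its whole levels were 47.5 and 48.6 CPM in B6 and 50.7 and 46.9 CPM in BALB, a span of a few CPM. In DP libraries it was at 1.88 and 1.37 CPM in B6, 6 counts in each, and at 0 in both BALB libraries. The rise was 4.89 ± 0.26 on the log2 scale in B6 (edgeR adjusted p = 1.49e-06) and at least 134.9-fold in BALB. B cells are also known to express Wdfy4.

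Itgax (CD11c), the integrin by which dendritic cells are usually gated, had 1 count among the DP libraries, in BALB DP replicate 1. It reached 7.50 and 5.32 CPM in B6 whole thymocytes, at least 16.1-fold higher, and 6.04 and 4.49 CPM in BALB, a ratio of 43.7 (95% counting interval 7.44 to 1767). Naaa, a lysosomal amidase abundant in type 1 conventional dendritic cells, was at 3.45 and 1.14 CPM in B6 DP, 7.50 and 8.47 CPM in B6 whole, 2.63 and 1.94 CPM in BALB DP and 10.1 and 14.0 CPM in BALB whole thymocytes. It rose by 1.88 ± 0.44 on the log2 scale in B6 and 2.32 ± 0.41 in BALB, with no overlap between DP and whole libraries.

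Clec9a, a receptor for the actin of dead cells on type 1 conventional dendritic cells, had 2 and 0 counts in B6 DP, 8 and 9 in B6 whole, 0 and 0 in BALB DP and 18 and 16 in BALB whole libraries. It rose at least 11.5-fold in BALB, while its B6 ratio of 7.90 (95% counting interval 1.88 to 70.5) did not pass at an edgeR adjusted p of 0.0718. Cst3, the protease inhibitor cystatin C, is known from many cell types besides dendritic cells. It was at 19.5 and 30.2 CPM in B6 DP, 32.5 and 33.1 CPM in B6 whole, 32.1 and 26.8 CPM in BALB DP and 39.4 and 44.7 CPM in BALB whole thymocytes, and it did not pass in either strain. The DP level of Cst3, pooled over libraries, was 75.2% of its whole level.

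The chemokine receptor Xcr1 and the lectin Cd209a were too low to test. Xcr1, a defining receptor of type 1 conventional dendritic cells, had 0 and 4 counts in B6 DP, 4 and 3 in B6 whole, 14 and 2 in BALB DP and 10 and 7 in BALB whole libraries, so the groups overlapped. Cd209a had no count in DP libraries and 1 to 4 in each whole library. Cd209a belongs to a family of similar genes, so its counts are uncertain.

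In the group of plasmacytoid and nucleic acid sensing genes all 3 were tested, and 3 rose in B6 and 2 in BALB. Over all tested genes 6.89% and 10.6% rose. All 3 passed the filter only through whole libraries, so the calls are a description. Siglech, a surface lectin of plasmacytoid dendritic cells, had 0 and 1 counts in B6 DP and 3 and 0 in BALB DP libraries. It was at 5.0 and 4.35 CPM in B6 whole thymocytes, a ratio of 35.3 (95% counting interval 5.97 to 1431), and at 6.28 and 4.49 CPM in BALB, a ratio of 14.9 (4.78 to 75.1). Tlr7, the X-linked receptor for single-stranded RNA (chromosome X, 167304929 to 167330558), was at 1.26 and 1.83 CPM in B6 DP and 0.175 and 0.388 CPM in BALB DP libraries, 1 count in each of the last. In whole thymocytes it was at 8.75 and 4.84 CPM in B6 and 7.25 and 6.24 CPM in BALB.

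Tlr7 thus rose by 2.08 ± 0.46 on the log2 scale in B6, and in BALB by a ratio of 28.0 (95% counting interval 7.38 to 236.7). Tlr9, the receptor for unmethylated DNA, had 0 and 2 counts in B6 DP, 15 and 11 in B6 whole, 1 and 0 in BALB DP and 3 and 10 in BALB whole libraries. Its ratio of 12.1 in B6 (3.03 to 105.1) passed at an edgeR adjusted p of 0.0304, and its ratio of 13.2 in BALB (1.99 to 561.8) did not at 0.0632. B cells express Tlr7 and Tlr9 too.

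Of 3 genes of activated dendritic cells 2 were tested, and both rose in B6 and in BALB (6.89% and 10.6% of all tested genes). Both passed the filter only through whole libraries, so their calls are a description. Ccl22, a chemokine made by activated dendritic cells in the thymic medulla, had no count in any DP library and was at 4.75 and 3.63 CPM in B6 whole and 7.49 and 6.49 CPM in BALB whole thymocytes. It was at least 10.5-fold higher in B6 and at least 19.3-fold higher in BALB. Fscn1, an actin-bundling protein of mature dendritic cells, was at 0.628 and 0.229 CPM in B6 DP, 10.5 and 8.71 CPM in B6 whole, 1.40 and 0.388 CPM in BALB DP and 4.35 and 7.49 CPM in BALB whole thymocytes. The B6 ratio was 24.2 (95% counting interval 7.97 to 119.7), and the BALB rise was 2.43 ± 0.53 on the log2 scale.

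Ccl17, the neighbour of Ccl22 that binds the same receptor, was too low to test. It had 2 and 1 counts in B6 DP, 4 and 3 in B6 whole, 2 and 5 in BALB DP and 5 and 0 in BALB whole libraries. No order of DP and whole libraries could be read in BALB, unlike for Ccl22.

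Macrophage and clearance genes were the largest group, with 11 of 12 tested, 10 raised in B6 and 9 in BALB. Over all tested genes 6.89% and 10.6% rose. Those tested, except Axl, Cd68 and Itgam, passed the filter only through whole libraries, so their calls are a description. The C1q genes, which macrophages transcribe from 1 cluster, were close to absent from DP libraries, with 0 to 3 counts each. C1qa was at 5.75 and 3.87 CPM in B6 whole and 10.6 and 9.74 CPM in BALB whole thymocytes. C1qb was at 7.25 and 6.53 CPM and at 7.97 and 9.49 CPM in the same order, and C1qc at 7.50 and 6.53 CPM and at 6.76 and 12 CPM. The 3 chains rose in both strains, and their whole libraries lay far above all DP libraries. C1qa was at least 12.1-fold higher in B6, C1qb at least 24.1-fold higher in BALB, and C1qc had ratios of 13.3 in B6 (95% counting interval 4.90 to 50.3) and 77.3 in BALB (13.5 to 3092). Per length, the chains C1qa, C1qb and C1qc stood at 7.21, 7.17 and 6.79 CPM per kb in whole thymocytes.

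Lyz2, lysozyme of macrophages and neutrophils (chromosome 10, 117277331 to 117282321), was at 0 and 0.914 CPM in B6 DP, 19.8 and 18.9 CPM in B6 whole, 0.175 and 0.388 CPM in BALB DP and 31.1 and 44.9 CPM in BALB whole thymocytes. Whole libraries were far above DP libraries, with a rise of 5.12 ± 0.51 on the log2 scale in B6 and a ratio of 157.1 in BALB (95% counting interval 43.1 to 1303). Its near-identical copy Lyz1 can take some of its reads. Mpeg1, a pore-forming protein of macrophages (chromosome 19, 12460779 to 12465283), was at 0 and 0.457 CPM in B6 DP, 22.0 and 26.9 CPM in B6 whole, 0.876 and 1.94 CPM in BALB DP and 30.2 and 27 CPM in BALB whole thymocytes. The B6 ratio was 92.5 (25.3 to 769), and the BALB rise was 4.52 ± 0.36 on the log2 scale.

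Axl and Mertk, kinases of the TAM family, rose in both strains. Axl, which binds apoptotic cells through Gas6, was at 4.39 and 4.11 CPM in B6 DP, 18.5 and 16.4 CPM in B6 whole, 1.93 and 1.94 CPM in BALB DP and 18.8 and 24.5 CPM in BALB whole thymocytes. It rose by 2.04 ± 0.26 on the log2 scale in B6 and 3.46 ± 0.29 in BALB. Mertk, the family member on most macrophages, had no count in a DP library and was at 3.75 and 2.66 CPM in B6 whole and 3.62 and 5.99 CPM in BALB whole thymocytes, at least 8.06-fold and at least 13.2-fold higher.

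Cybb, the X-linked catalytic subunit of the phagocyte oxidase, had 0 and 5 counts in B6 DP and none in BALB DP libraries. It was at 11.5 and 11.6 CPM in B6 whole and 12.3 and 19.97 CPM in BALB whole thymocytes, a rise of 4.08 ± 0.60 on the log2 scale in B6 and at least 44.4-fold in BALB. The highest level was in BALB whole replicate 2, which was also high in neutrophil genes, and their part in it was not tested. Emr1, the gene of the macrophage marker F4/80, had 0 and 3 counts in B6 DP, 16 and 9 in B6 whole, none in BALB DP and 12 in each BALB whole library. Its ratio in B6 was 7.75 (95% counting interval 2.36 to 40.1; edgeR adjusted p = 0.0457), and in BALB it was at least 8.14-fold higher. Cd14, a co-receptor for lipopolysaccharide, had at most 5 counts in any library and was not tested.

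Like Axl, the macrophage genes Cd68 and Itgam passed the filter on low counts from DP libraries alone. Cd68, a lysosomal glycoprotein (chromosome 11, 69664213 to 69666153), was at 4.39 and 7.08 CPM in B6 DP, 13.2 and 11.1 CPM in B6 whole, 7.88 and 6.60 CPM in BALB DP and 9.42 and 10.7 CPM in BALB whole thymocytes. It rose by 1.04 ± 0.29 on the log2 scale in B6 (edgeR adjusted p = 0.0392), and its BALB value of 0.44 ± 0.28 did not pass (edgeR adjusted p = 0.313). Itgam (CD11b), the integrin of macrophages and neutrophils, lay at 10.7 to 16.0 CPM in DP and 11.5 to 13.2 CPM in whole libraries. The groups of Itgam overlapped in both strains, with log2 values of -0.13 ± 0.24 in B6 and 0.05 ± 0.24 in BALB, and its DP level was 101% of its whole level. BALB whole replicate 2, high in neutrophil genes, had 13.2 CPM of Itgam and replicate 1 had 13.0 CPM.

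Among Fc receptors and adaptors, 4 of 5 were tested, 2 rose in B6 and 3 in BALB (6.89% and 10.6% of all tested genes). All 4 passed the filter only through whole libraries, so their calls are a description. Fcgr3, an activating receptor for IgG, had 1 count among DP libraries and was at 2.0 and 3.39 CPM in B6 whole thymocytes, at least 6.82-fold higher, and at 2.17 and 2.75 CPM in BALB, a ratio of 20.3 (95% counting interval 3.25 to 843). Tyrobp (DAP12), an adaptor of activating receptors in myeloid and natural killer cells, was at 0.314 to 0.526 CPM in DP libraries, at 5.25 and 1.94 CPM in B6 whole and at 2.66 and 3.99 CPM in BALB whole thymocytes. Its ratio was 8.99 in B6 (2.79 to 46.1) and its log2 rise in BALB 2.71 ± 0.72. All whole libraries of both genes lay above all DP libraries.

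Fcgr2b, the inhibitory IgG receptor that B cells carry too, had 1 and 2 counts in B6 DP, 12 and 4 in B6 whole, none in BALB DP and 12 and 2 in BALB whole libraries. Only the BALB difference passed, at least 4.75-fold with an edgeR adjusted p of 0.0479, and the B6 ratio of 4.96 (95% counting interval 1.4 to 26.6) did not at 0.227. Fcer1g, the shared gamma chain of Fc receptors, had 3 and 0 counts in B6 DP, 9 and 14 in B6 whole, 3 and 2 in BALB DP and 7 and 13 in BALB whole libraries, and did not pass in either strain. Cd300c had at most 3 counts in a whole library and none in DP libraries. Fcgr2b and Fcgr3 share similar exons, and Cd300c belongs to a cluster of similar genes, so their counts are uncertain.

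**Figure D3:**
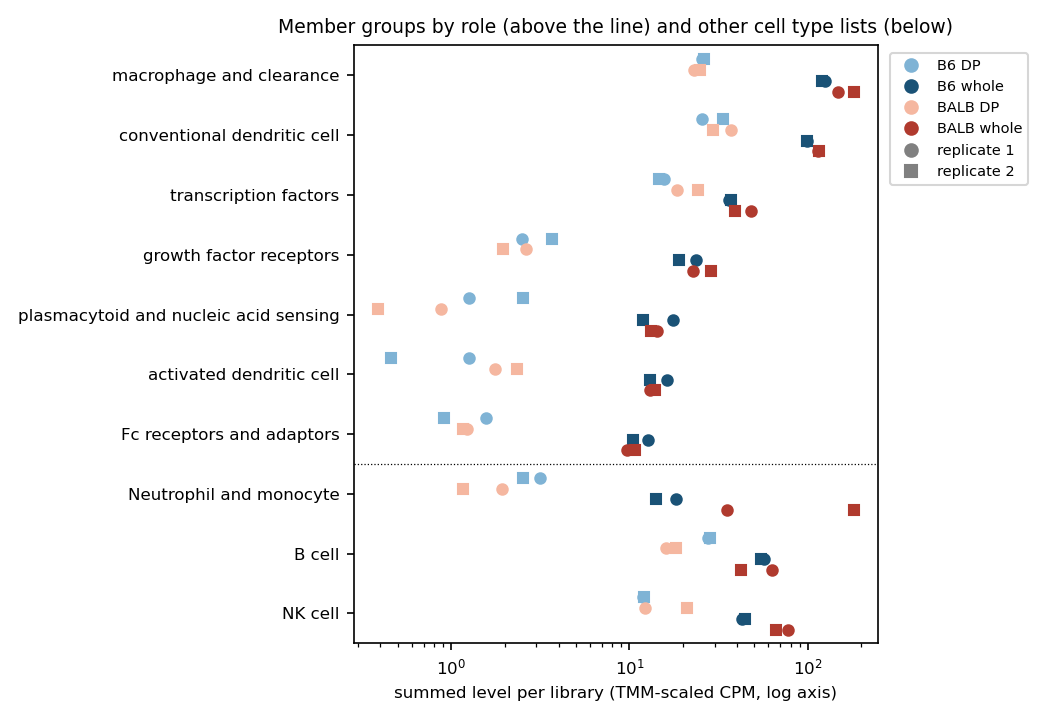
Summed CPM per library on a log axis for the members of each role (above the dotted line) and for 3 lists of other cell types (below it), with colours for the 4 groups, circles for replicate 1 and squares for replicate 2. Macrophage and clearance genes and conventional dendritic cell genes hold most of the sum in whole thymocytes, and the roles differ in how far DP libraries fall below.

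By role, the sums show how unequally the members were left in DP libraries. Macrophage and clearance genes summed to 23.1 to 26.1 CPM in DP libraries and 119.5 to 181.7 CPM in whole libraries, and conventional dendritic cell genes to 25.4 to 37.3 CPM and 98.5 to 116.1 CPM. In DP libraries most of these 2 sums came from Itgam, Cd68, Axl and Cst3. Growth factor receptors summed to 1.94 to 3.66 CPM in DP and 18.9 to 28.7 CPM in whole libraries, and plasmacytoid and sensing genes to 0.388 to 2.51 CPM and 11.9 to 17.5 CPM. Transcription factors had the lowest ratio of whole to DP level, 2.41 in B6 and 2.05 in BALB. Pooled over strains, the DP level was under 5% of the whole level for 18 members, 5% to 30% for 14 and over 50% for 8, which were Ccl17, Cd68, Cebpb, Cst3, Irf5, Itgam, Xcr1 and Zbtb46. No count in any DP library was found for 7 members: Spi1, Batf3, Csf2rb, Cd209a, Ccl22, Mertk and Cd300c.

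Compared per kilobase of exons (pooled CPM per kb in whole thymocytes), Cst3 was the most abundant member at 43.5 and Lyz2 the next at 21.8. Cd68 followed at 8.85, C1qa at 7.21, C1qb at 7.17, C1qc at 6.79, Mpeg1 and Irf8 at 6.12 each, and Tyrobp at 6.10. Over the 4 whole libraries Cst3, Lyz2 and Cd68 did not overlap, while from Cd68 to Tyrobp each gene overlapped the next in this order. The pooled order of these 7 held in neither strain: C1qa was at 4.63 in B6, below the other 6, and at 9.79 in BALB, above Cd68 at 8.02. Wdfy4, with long exons, was at 4.77. Zbtb46 at 0.390 and Xcr1 at 0.331 were the lowest of the 40.

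In the comparison of the strains in whole thymocytes, the share of members called was near that of all genes. Of 33 tested, 1 was higher in BALB and 0 were lower, where 4.59% of tested genes were called, 1.98% higher and 2.61% lower. Both BALB whole libraries were above both B6 whole libraries for 14 of 40 members and below for 4, against 22.2% and 19.7% of genes with a count. At an unadjusted p under 0.05, 2 were higher (C1qa and Lyz2) and 0 lower, and the DESeq2 Wald test called 0 in either direction. The median BALB over B6 ratio over the 40 members was 1.16, with 24 above 1 and 16 below, and the summed level was 1.21 times that of B6. Macrophage and clearance genes summed to 1.34 times the B6 level, at 125.5 and 119.5 CPM in B6 and 147.3 and 181.7 CPM in BALB whole thymocytes, highest in the library that was high in neutrophil genes.

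Lyz2 was the member called: its 19.8 and 18.9 CPM in B6 whole and 31.1 and 44.9 CPM in BALB whole thymocytes did not overlap, a difference of 0.98 ± 0.25 on the log2 scale (edgeR adjusted p = 0.0463). The level was highest in BALB whole replicate 2, the library with 181 CPM of neutrophil and monocyte genes. In that comparison S100a9, Ngp and Csf3r, of neutrophils, were higher in BALB by 3.0 ± 0.66, 3.73 ± 0.78 and 2.55 ± 0.59 on the log2 scale. The part of neutrophils in the Lyz2 difference was not tested. The Lyz2 difference was 0.69 without BALB whole replicate 2 (edgeR adjusted p = 0.435) and 1.22 without BALB whole replicate 1 (0.0565), and the edgeR adjusted p was 0.27 without B6 whole replicate 1 and 0.341 without B6 whole replicate 2.

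C1qa was higher in both BALB whole libraries (10.6 and 9.74 CPM) than in both B6 whole libraries (5.75 and 3.87 CPM), by 1.08 ± 0.34 on the log2 scale, and did not pass (edgeR adjusted p = 0.125). Its cluster neighbours had smaller values, 0.34 ± 0.33 for C1qb and 0.41 ± 0.35 for C1qc. Wdfy4, the best counted member, differed by 0.02 ± 0.15 on the log2 scale, with B6 and BALB whole libraries overlapping. Clec9a had the next largest value, 0.99 ± 0.51, and Fscn1 and Tlr9 the lowest, -0.70 ± 0.37 and -0.99 ± 0.61, none of which passed. A p that misses the threshold does not show equal levels, and with a median SE of 0.36 over the tested members small differences were not detectable at this depth.

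**Figure D4:**
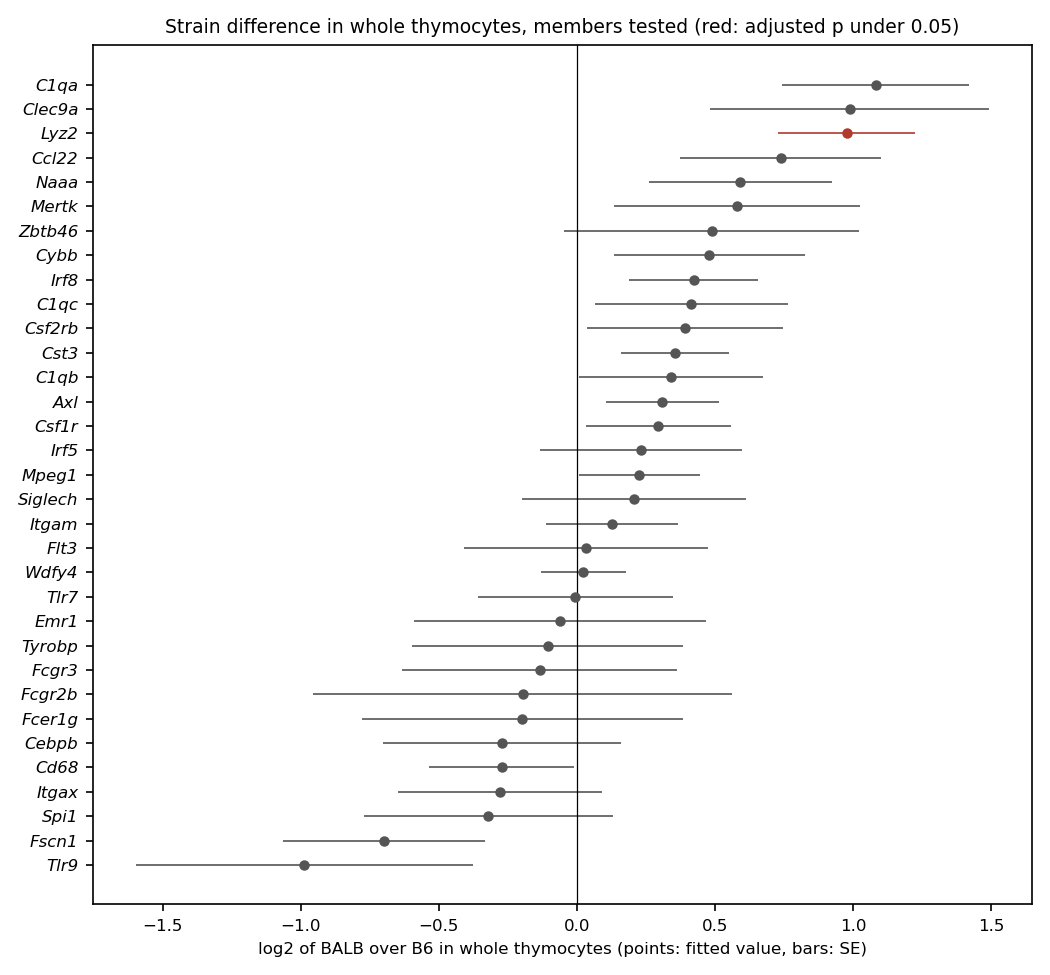
Log2 of the BALB over B6 level in whole thymocytes for the 33 members tested, as fitted values with SE bars. Lyz2, at 0.98, is the member called, and the other members spread from -0.99 for Tlr9 to 1.08 for C1qa.

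In DP thymocytes 1 member of 33 was called between the strains, where 13% of tested genes were called, 6.85% higher in BALB and 6.14% lower. Of the 33, 7 passed the filter from DP libraries alone, and 0 of these were called. Without a count were 11 of the 40 members in B6 DP and 15 in BALB DP libraries. Members with so few counts could hardly be called, so the low number does not show similar strains. Both BALB DP libraries were above both B6 DP libraries for 2 of 40 members and below for 5, against 22.9% and 23.1% of genes with a count. The 40 include 7 members without a count in any DP library, which could not separate. Wdfy4 had 6 and 6 counts in the B6 DP libraries and 0 and 0 in the BALB DP libraries, among them the deepest library of the set. Its level was at least 4.38-fold lower in BALB (edgeR adjusted p = 0.00573), and the edgeR adjusted p was 0.0774 without BALB DP replicate 1 and 0.0608 without that library and BALB whole replicate 1. Members higher in BALB numbered 0 by edgeR, 0 by the DESeq2 Wald test and 0 by limma-voom, and 2 at an unadjusted p under 0.05 (Irf5 and Mpeg1). Lower at an unadjusted p under 0.05 were 4: Wdfy4, Tlr7, Axl and Cybb. Axl, at 4.39 and 4.11 CPM in B6 DP and 1.93 and 1.94 CPM in BALB DP libraries, fell short of a call with -1.12 ± 0.38 on the log2 scale (edgeR adjusted p = 0.0762), and Tlr7 did with a ratio of 0.152 (95% counting interval 0.0165 to 0.683; edgeR adjusted p = 0.0741).

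The interaction asks whether the strain difference in whole thymocytes differs from that in DP thymocytes. It called 0 of 33 members by edgeR, 0 by the DESeq2 Wald test and 0 by limma-voom, where 0.123% of tested genes were called (0.105% higher and 0.0175% lower), and 4 had an unadjusted p under 0.05, the same Wdfy4, Tlr7, Axl and Cybb. Tlr7 and Cybb are X-linked, and BALB whole replicate 1 had the sex-linked transcripts of female cells. The part of sex in their values was not tested. For Axl the interaction was 1.43 ± 0.44 on the log2 scale (edgeR adjusted p = 0.266). For Wdfy4 the edgeR adjusted p was 0.111, and 0.0101 without BALB DP replicate 2. So the whole over DP rise of Wdfy4, Axl and Tlr7, larger in BALB by value, was not shown to differ between the strains in the full set.

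Lists of other genes of the same cells, which leave out the members, were counted in the same fit, in which 6.89% of tested genes rose in B6 and 10.6% in BALB whole over DP thymocytes. Of 30 other macrophage genes in the files 16 were tested, 12 of which passed the filter only through whole libraries, and 11 rose in B6 and 14 in BALB. Apoe, the lipid carrier made by macrophages, rose by 2.10 ± 0.15 in B6 and 2.72 ± 0.15 in BALB on the log2 scale, and Vcam1, an adhesion molecule of tissue macrophages and stroma, by 4.24 ± 0.43 in B6, with 2 counts in BALB DP and 163 in BALB whole libraries. Of 34 other dendritic cell genes 24 were tested, 11 of which passed only through whole libraries. In B6 12 of the 24 rose and 12 did not pass, and in BALB 17 rose and 7 did not pass. The summed other macrophage genes had whole over DP ratios of 1.46 in B6 and 2.16 in BALB. The summed other dendritic cell genes had 1.89 and 2.74, both below the 4.13 and 4.55 of the members. Both whole libraries lay above both DP libraries for 26 of the 34 dendritic cell genes in B6 and 25 in BALB. The same held for 25 of the 30 macrophage genes in each strain. Both lay below for 2 of the 34 in each strain, and for 1 of the 30 macrophage genes in B6. Of all genes with a count, 30.1% lay above and 23.8% below in B6, and 28.5% and 19.4% in BALB. Cd74, which chaperones MHC class II and is also expressed by B cells, rose by 3.73 ± 0.23 in B6 and 4.93 ± 0.25 in BALB. Between strains in whole thymocytes Apoe was higher in BALB (0.60 ± 0.13), as was Ccr2 (1.56 ± 0.32), a chemokine receptor of monocytes. Ly6d, of lymphoid and plasmacytoid cells, was lower in BALB whole thymocytes (-2.43 ± 0.24). The sorted DP libraries showed this order of strains for Ly6d too, with means of 68.2 CPM for B6 and 18.3 CPM for BALB. Pooled over libraries, the DP level of Ly6d was 115.6% of its whole level. The part of plasmacytoid cells in its strain difference was not tested.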

How the data were processed

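Total RNA of 8 libraries, 2 in each of 4 groups taken from the library names, was sequenced after TruSeq v2 preparation, which does not keep the strand, so overlapping antisense genes cannot be told apart. HISAT2 2.2.0, mm10, HTSeq and DESeq2 1.42.1 are named in the submitters' processing notes. Which gene annotation was counted is not given in the sources used here. All deposited values are raw whole-number counts per gene symbol. Rows for reads outside genes were left out, and 22.6% to 30.8% of reads were in genes. No other build than mm10 is named in those notes for the BALB libraries.

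The counts were analysed with edgeR 4.0.16 in R 4.3.3 (TMM factors 0.957 to 1.05, filterByExpr with a minimum count of 10, 1 coefficient per group, quasi-likelihood test, Benjamini-Hochberg adjustment over 11409 genes). The script was tested on simulated data. Errors of log2 fold changes are SE from the fit. For groups without a count the fold is a bound, computed with 3 counts in the group, and low groups (1 to 3 counts) have a ratio and its exact 95% counting interval. Positions are from GENCODE M21. The members and lists were chosen with earlier results of these data known. All 40 members could be named, and from each other list at most 3 genes with the smallest p. Alternatives were DESeq2 1.42.0 size factors and Wald test, limma 3.58.1 voom, no filter and a strict filter, a replicate block, only the libraries compared and leaving out libraries.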

Additional observations from a re-analysis of the deposited data

How the results depend on the processing

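No member changed direction under any alternative when called. For members higher in whole over DP thymocytes, the strict filter (a mean count of 20, with 1 CPM reached in 2 libraries) tested 13 members and called 9 in B6 and 8 in BALB, against 25 and 25. The member lower in BALB whole over DP, Cebpb, gave 0 with the DESeq2 Wald test and 0 with only the libraries compared. For BALB over B6 in whole thymocytes, members higher numbered 0 under the strict filter, 0 by the DESeq2 Wald test, 0 with the replicate block and 2 with only the libraries compared, which added C1qa. Members lower in BALB DP numbered 2 without a filter (Tlr7 added), 0 with only the libraries compared and 0 without BALB DP replicate 1 and BALB whole replicate 1, an alternative chosen after seeing the data. The interaction called 1 member, Wdfy4, without a filter. With only the libraries compared, 7 members were tested in DP thymocytes and Wdfy4 was not among them, and the strict filter also tested fewer members. For the other changes the cause was not tested. Over all genes, whole over DP in B6 gave 1159 calls, 737 under the strict filter, 748 by DESeq2, 2568 with only the libraries compared and 2809 without both BALB libraries. In BALB it gave 1961, 1303 under the strict filter and 1101 with only the libraries compared. The strain comparison gave 524 in whole thymocytes, 839 without a filter, 1050 with only the libraries compared and 1046 without both, and 1482 in DP thymocytes with 562 for only the libraries compared. The interaction gave 14, 364 without a filter, 24 by DESeq2, 8 by limma-voom and 139 without both. Without TMM factors the summed members were at 81.68 and 82.44 CPM in BALB DP.

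Leaving out 1 library in turn, members higher in whole over DP ranged from 16 to 27 in B6 and from 21 to 26 in BALB, members lower from 0 to 0 and from 0 to 1, and all calls from 378 to 2201 and from 1040 to 3976. In the strain comparisons members higher in whole thymocytes ranged from 0 to 1 (all calls 214 to 966) and members lower in DP thymocytes from 0 to 1 (509 to 3493), and in the interaction members higher from 0 to 1 (all calls 0 to 1311). Libraries with the same replicate number deviated from their group means with correlations of -0.038 to 0.057. No pairing by number was seen, but values near 0 cannot exclude it, since counting error also enters them. With the replicate block, members called numbered 23 in B6 whole over DP, 26 in BALB, 0 and 1 in the strain comparisons in whole and DP thymocytes, and 0 in the interaction. Depth limits members under about 10 counts a library, for which a group at 0 gives only a floor.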
